A study of Homo sapiens with 20 samples.

Results

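The MYC and MAX network is described here through 10 genes, MYC, MAX, MXD1, MXD3, MXD4, MXI1, MNT, MLX, MLXIP and MGA. They were taken by gene name from a table of 36601 genes, and all 10 were among the 12149 genes with enough counts to be tested. The samples are 20 libraries of the established cell line MDA-MB-231, from a human breast cancer without hormone receptors, in 5 groups of 4. Untreated cells had neither particles nor light. A second group, called nanoparticle-only cells, received nanoparticles without light, at 0.1 mg/ml in 200 µl for 4 h. Cells of the other 3 groups received the same nanoparticles and were then lit with an 808 nm laser for 10 min, held at 46, 50 or 54 °C. All 20 samples came from wells seeded with 30000 cells and grown for 24 h at 37 °C, with 2 wells combined per RNA sample. The series title names c-MYC, so the question put to these genes is whether MYC mRNA and its partners differed between the temperatures. Cells given light without particles were not analysed here, and the effects of heat and of light cannot be told apart.

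MYC is a transcription factor that binds DNA only as a dimer with MAX, at a short motif called the E-box, and turns on genes for growth, ribosome production and metabolism. MAX also pairs with the MXD proteins (MXD1, MXD3, MXD4 and MXI1) and with MNT, and these dimers sit on the same motif and recruit SIN3 and histone deacetylases, which silence the gene. MLX is a second hub that pairs with MLXIP, also named MondoA, a sensor of glucose metabolites, and with some MXD proteins and MNT. MGA carries a MAX-binding domain and brings MAX into PRC1.6, a Polycomb complex that represses germline and meiotic genes. MYC mRNA and protein are short-lived, so the mRNA level can move quickly with transcription and decay. The assay read mRNA only, so nothing here bears on MYC protein.

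The E-box, CACGTG, reads the same on both strands. It was searched in RefSeq promoter windows of GRCh38.p14 that run from 250 bases before to 50 bases after a gene's start. Of 35116 windows, 7.26% held it, and of 27305 genes, some with several windows, 8.77% had it in at least 1. Of the 9 members with a window in the table, 3 held an E-box, and these are shown because each lies in the promoter of a network gene itself. They are MNT, whose E-box begins 193 bases upstream of the start, MXD4, with 238 bases, and MLX, with 50 bases. Among 19 genes known to be activated by MYC that had a window, 8 held the motif. CDK4, SRM and HSPD1 are shown as examples. CDK4 encodes a cell cycle kinase, SRM spermidine synthase, and HSPD1 a mitochondrial chaperone. The CDK4 stretch holds 2 E-boxes. Capitals mark the E-box, and each stretch is written 5′ to 3′ on the gene's own strand.
MNT, chr17:2401221-2401280, minus strand: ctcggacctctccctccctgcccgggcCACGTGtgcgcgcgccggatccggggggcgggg
MXD4, chr4:2262315-2262359, minus strand: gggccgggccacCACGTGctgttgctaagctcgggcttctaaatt
MLX, chr17:42567023-42567082, plus strand: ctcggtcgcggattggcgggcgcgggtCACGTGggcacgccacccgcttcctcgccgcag
CDK4, chr12:57752494-57752553, minus strand: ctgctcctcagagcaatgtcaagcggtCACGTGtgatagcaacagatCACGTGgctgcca
SRM, chr1:11060185-11060244, minus strand: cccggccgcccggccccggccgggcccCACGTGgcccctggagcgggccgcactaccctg
HSPD1, chr2:197500330-197500389, minus strand: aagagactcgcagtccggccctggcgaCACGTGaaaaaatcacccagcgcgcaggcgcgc
A match is a run of letters and not a measured binding site. The absence of CACGTG from a window says only that these letters are not there.

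Libraries were made from the 3′ ends of mRNAs (QuantSeq FWD), and the values deposited by the authors are estimated counts, 1 per gene and library. Library totals ran from 2401180 to 7710977 counts. Mean totals were lowest at 46 °C, with 2872173, and highest at 54 °C, with 6769582. Levels below are CPM, a gene's counts relative to its library's total, scaled by TMM. The libraries carried the genes of the labelled line, with VIM at 1340 to 2074 CPM and CD44 at 551 to 797 CPM. ESR1 and PGR, the hormone receptors, had medians of 0 CPM. Of the other listed luminal breast genes, FOXA1 and CDH1 also had medians of 0 CPM. KRT19, at 50.2 to 148 CPM, GATA3, at 3.66 to 27.4 CPM, and ERBB2, at 3.68 to 16.9 CPM, were present. Summed markers reached at most 23.7 CPM for macrophages, 0.993 CPM for lymphocytes, 3.74 CPM for red cells and platelets and 9.32 CPM for fibroblasts. Of the macrophage list, LYZ, AIF1 and MARCO were at 0 in all libraries. CD68 was found in every library, at 3.37 to 17.7 CPM, and CSF1R reached 8.87 CPM. In bulk samples, fewer cells of a type and less RNA per cell cannot be told apart. The labels do not say that the 4 samples of a group came from separate cultures, so a p-value here reflects only how far these samples vary among themselves, a variation that may be technical.

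No member passed the test in any of the 7 comparisons, with edgeR's quasi-likelihood test and Benjamini-Hochberg adjustment over all tested genes (adjusted p under 0.05). The share of all tested genes that passed was 0% for nanoparticles alone against untreated cells, 0.963% for 46 °C, 1.22% for 50 °C and 0.123% for 54 °C against nanoparticle-only cells. It was 1.19% for 50 °C against 46 °C, 0.198% for 54 °C against 50 °C and 0.634% for 54 °C against 46 °C. With shares this low, 0 of 10 members is close to what the whole table shows. limma-voom also called 0 members in each comparison. DESeq2 called MNT at 50 °C and at 54 °C against nanoparticle-only cells and MLXIP at 54 °C against 46 °C, and 0 members elsewhere. It gave no adjusted p for 7 members in each comparison between 2 temperatures. The 46, 50 and 54 °C comparisons share the same 4 nanoparticle libraries, so their values are not independent of each other.

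At an unadjusted p under 0.05, 0 of 10 members passed for nanoparticles alone, where 3.94% of all genes did. At 46 °C, MNT was above and MLXIP below nanoparticles alone at that threshold, where 11% of all genes passed. At 50 °C they were MXD4 and MNT, both higher, with 11.4% of all genes passing, and at 54 °C MYC and MNT, both higher, with 5.75% passing. Between temperatures, MXD4 was higher at 50 than at 46 °C (10.6% of all genes passing). MXD1 and MLXIP were higher and MXD4 lower at 54 than at 50 °C (6.02%), and MLXIP was higher at 54 than at 46 °C (8.56%). None of these unadjusted values is a call.

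**Figure D1:**
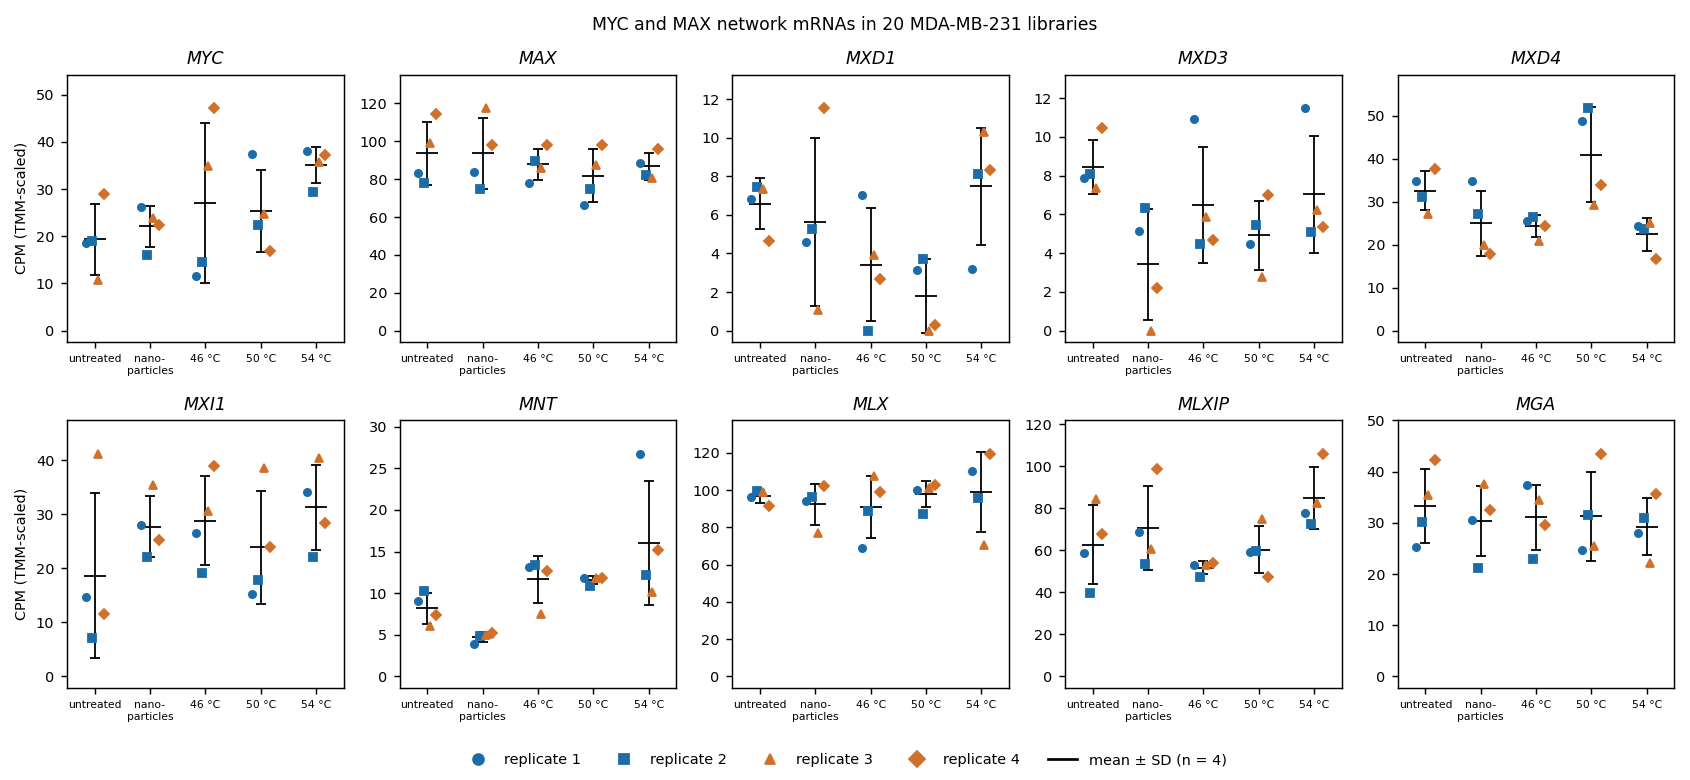
TMM-scaled CPM (vertical axis) of each of the 10 members in untreated cells, nanoparticles alone, 46 °C, 50 °C and 54 °C; each point is 1 library, colours separate replicates 1 and 2 from replicates 3 and 4, and bars are the mean ± SD of 4 libraries. MNT sits at 3.84 to 5.16 CPM in nanoparticle-only cells and higher in all other groups, MYC is tightest at 54 °C and widest at 46 °C, and the MAX and MLX values overlap in all groups.

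MYC, the activator of the network, lies on chromosome 8 (ENSG00000136997). Its 4 libraries, in replicate order, had 18.6, 18.99, 10.7 and 29.03 CPM in untreated cells and 26.1, 15.97, 23.95 and 22.4 CPM in nanoparticle-only cells. At 46 °C they had 11.5, 14.6, 34.9 and 47.2 CPM, at 50 °C 37.3, 22.3, 24.7 and 16.8 CPM, and at 54 °C 38.1, 29.4, 35.6 and 37.1 CPM. The 54 °C libraries all lay above every nanoparticle library, while the 46 and 50 °C libraries lay on both sides of them. The group means stood in the order untreated (19.3), nanoparticles alone (22.1), 50 °C (25.3), 46 °C (27.1) and 54 °C (35.1 CPM), and no neighbours in that order differed by the test, with unadjusted p = 0.249 between 54 and 46 °C, the widest step.

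Set against nanoparticle-only cells, MYC had a log2 fold change of 0.67 ± 0.33 (SE) at 54 °C, a 1.59-fold difference with a 95% interval of 1.01 to 2.5. Its edgeR adjusted p was 0.866 (unadjusted p = 0.0451). The 54 °C libraries also had the highest totals, with 218 to 262 MYC counts, against 67 to 102 counts in nanoparticle-only cells, and the part of depth in this difference was not tested. At 46 °C the log2 fold change was 0.29 ± 0.33 (95% interval −0.38 to 0.96, adjusted p = 0.845, edgeR), and at 50 °C 0.20 ± 0.33 (−0.46 to 0.86, adjusted p = 0.897). These intervals leave room for a fall of MYC mRNA to 0.769-fold at 46 °C and 0.725-fold at 50 °C, and for a rise to 1.94-fold and 1.82-fold. The interval at 54 °C starts at 1.01-fold, but it is not adjusted for the number of genes tested. In that comparison 5.75% of all genes had an unadjusted p under 0.05 with edgeR, so a fall is not excluded. Nanoparticles alone differed from untreated cells by 0.19 ± 0.34 (adjusted p = 1.00, edgeR).

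MYC at 46 °C split by replicate number. Replicates 1 and 2 lay below all 4 nanoparticle libraries and replicates 3 and 4 above them. Within replicates 1 and 2 MYC had a log2 fold change of −0.68 ± 0.41 (adjusted p = 0.496, edgeR), with means of 13.1 CPM at 46 °C and 21.04 CPM in nanoparticle-only cells. Within replicates 3 and 4 it had 0.83 ± 0.42 (adjusted p = 0.702), with means of 41.0 CPM at 46 °C and 23.1 CPM in nanoparticle-only cells. The difference between the pairs was 1.51 on the log2 scale (unadjusted p = 0.0129, adjusted p = 0.806, edgeR), in a table where 5.43% of genes had an unadjusted p under 0.05 for the same term. For 50 °C against 46 °C the pairs also had opposite signs, 1.19 ± 0.41 within replicates 1 and 2 and −0.98 ± 0.42 within replicates 3 and 4. That difference was −2.17 (unadjusted p = 0.00046, adjusted p = 0.699), with a background of 4.35%. For 54 °C against 46 °C it was −1.54 (unadjusted p = 0.00952, adjusted p = 0.650), with a background of 6.16%. These differences all use the same 46 °C libraries, so they are not independent of each other. At 54 °C against nanoparticle-only cells replicates 1 and 2 had 0.68 ± 0.38, and replicates 3 and 4 had 0.66 ± 0.41. The labels name no batch for these replicate numbers, and what divides them was not tested.

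**Figure D2:**
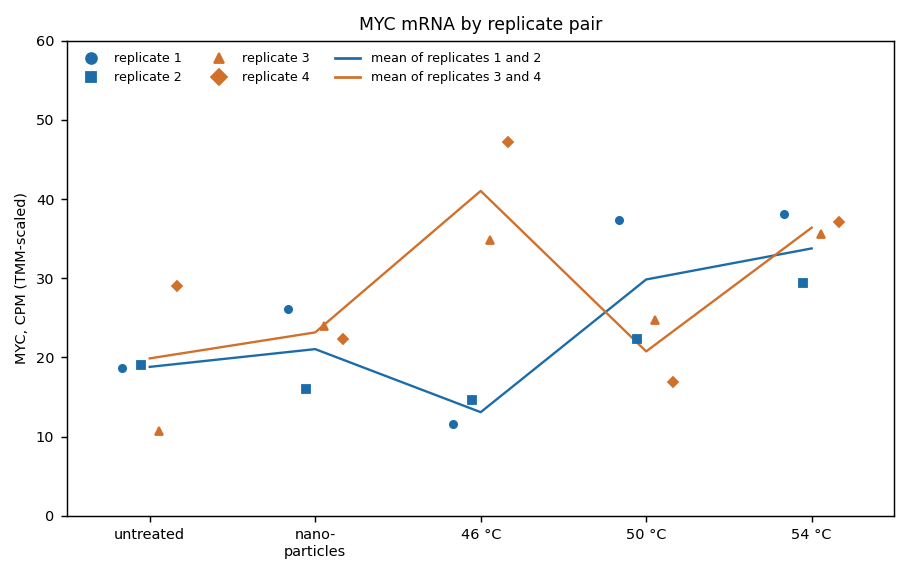
MYC level in TMM-scaled CPM (vertical axis) in each of the 20 libraries by group, with lines through the means of replicates 1 and 2 (blue) and of replicates 3 and 4 (orange). At 46 °C the blue mean is 13.1 CPM and the orange mean 41.0 CPM, the 2 lines cross between 46 and 50 °C, stand at 29.84 and 20.75 CPM at 50 °C, and cross again before 54 °C, where they stand at 33.8 and 36.4 CPM.

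MAX, the shared partner, lies on chromosome 14 (65006174 to 65102695, minus strand, GENCODE v29, GRCh38). It ranged from 77.8 to 114 CPM in untreated cells, 74.8 to 118 CPM in nanoparticle-only cells, 77.8 to 98.0 CPM at 46 °C, 66.3 to 98.2 CPM at 50 °C and 80.4 to 96.05 CPM at 54 °C. All 5 groups overlapped. Against nanoparticles alone its log2 fold changes were −0.090 ± 0.17 at 46 °C, −0.19 ± 0.17 at 50 °C and −0.11 ± 0.17 at 54 °C, with 95% intervals that together reach from −0.54 to 0.25. MAX was counted 219 to 648 times per library, so its intervals are narrow beside those of the rarer members. FNTB, a gene on the other strand, covers the 3′ end of MAX, and the strand setting of the counting is not given in the sources used here. Reads of the 2 genes may therefore not be fully separated.

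MNT, a MAX partner that represses and is found in most cycling cells, had group means up to 3.41-fold apart, the widest among the members but for the rarely counted MXD1, at 4.18-fold. It lies on chromosome 17 (2384060 to 2401118, minus strand). Its libraries had 9.10, 10.3, 6.02 and 7.35 CPM in untreated cells and 3.84, 4.81, 5.00 and 5.16 CPM in nanoparticle-only cells. They had 13.1, 13.4, 7.44 and 12.6 CPM at 46 °C, 11.8, 10.9, 11.8 and 11.8 CPM at 50 °C, and 26.8, 12.2, 10.1 and 15.1 CPM at 54 °C. Every laser-treated library was above every nanoparticle library, and every nanoparticle library was below every untreated one. The 54 °C libraries overlapped the untreated ones, since 10.1 CPM in replicate 3 at 54 °C is under the 10.3 CPM of untreated replicate 2. MNT was counted 14 to 22 times per library in nanoparticle-only cells and 62 to 184 times at 54 °C.

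Against nanoparticles alone, MNT had a log2 fold change of 1.77 ± 0.44 at 54 °C, a 3.40-fold difference with a 95% interval of 1.85 to 6.25 (unadjusted p = 0.000178, adjusted p = 0.0994, edgeR). It had 1.31 ± 0.44 at 46 °C (adjusted p = 0.173) and 1.297 ± 0.44 at 50 °C (adjusted p = 0.149). These values miss the threshold, while DESeq2 gave adjusted p = 0.00302 at 54 °C, 0.0426 at 50 °C and 0.0527 at 46 °C. limma-voom gave 0.285, 0.329 and 0.420 for the same temperatures. Leaving out single libraries kept the log2 fold change at 54 °C between 1.40 and 1.93. Nanoparticles alone differed from untreated cells by −0.80 ± 0.44 (unadjusted p = 0.0767, adjusted p = 1.00, edgeR), so the nanoparticle libraries that serve as controls for the laser were themselves the lowest group. Groups without overlap were found for 2.73% of all genes in nanoparticle-only cells against untreated cells, where 2 of 10 members, MNT and MXD3, were without overlap and lower. The shares were 6.96% at 46 °C, where MNT was such a member, 8.33% at 50 °C, where MNT was again, and 4.28% at 54 °C, with MYC and MNT, all higher. An E-box lies in the MNT promoter window printed above.

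The MXD genes encode repressors that replace MYC on MAX, mostly as cells leave the cycle. MXD4 lies on chromosome 4 (2247432 to 2262294, minus strand). Its libraries had 34.7, 31.1, 27.1 and 37.5 CPM in untreated cells and 34.8, 27.1, 20.02 and 17.9 CPM in nanoparticle-only cells. They had 25.6, 26.6, 20.8 and 24.3 CPM at 46 °C, 48.9, 51.9, 29.2 and 34.0 CPM at 50 °C, and 24.4, 23.6, 25.0 and 16.6 CPM at 54 °C. The 50 °C libraries lay above all those at 46 and 54 °C. MXD4 had 0.71 ± 0.27 at 50 °C against nanoparticle-only cells (adjusted p = 0.213, edgeR) and 0.75 ± 0.27 at 50 °C against 46 °C (adjusted p = 0.197). At 54 °C against 50 °C it had −0.87 ± 0.26 (unadjusted p = 0.0017, adjusted p = 0.284). Groups did not overlap for 7.10% of all genes between 50 and 46 °C, where MXD4 was the 1 member, and for 5.13% between 54 and 50 °C, where it was again.

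MXD1 is the founding member of the repressors and lies on chromosome 2 (69897688 to 69942945, plus strand). It had 6.82, 7.47, 7.36 and 4.64 CPM in untreated cells and 4.61, 5.25, 1.07 and 11.5 CPM in nanoparticle-only cells. It had 7.05, 0, 3.92 and 2.66 CPM at 46 °C, 3.16, 3.72, 0 and 0.281 CPM at 50 °C, and 3.20, 8.12, 10.3 and 8.32 CPM at 54 °C. The libraries at 0 allow a level of up to 0.895 CPM in replicate 2 at 46 °C and 0.755 CPM in replicate 3 at 50 °C, as 3 counts of their totals, for counting error only. The 50 °C group had 28 MXD1 counts in all, so a difference at this level rests on few reads. Against 50 °C, MXD1 at 54 °C had 2.04 ± 0.84 (adjusted p = 0.642, edgeR), and the lowest 54 °C library, at 3.20 CPM, overlapped the 50 °C libraries. Means were 5.66 CPM at 54 °C and 3.44 CPM at 50 °C within replicates 1 and 2 (0.72 ± 1.04), and 9.31 CPM at 54 °C and 0.140 CPM at 50 °C within replicates 3 and 4, where the fitted 5.81 ± 1.55 is set against libraries at or near 0 and is no measure of size. The pairs differed by 5.115 on the log2 scale (unadjusted p = 0.00894, adjusted p = 1.00, edgeR), a term for which 549 of 12149 genes had an unadjusted p under 0.05.

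MXD3, on chromosome 5 (177301461 to 177312757, minus strand), had 0 to 6.34 CPM in nanoparticle-only cells, against 7.36 to 10.5 CPM in untreated cells, and these groups did not overlap. Its log2 fold change was −1.26 ± 0.66 (unadjusted p = 0.0605, adjusted p = 1.00, edgeR). The library at 0, nanoparticle replicate 3, allows up to 1.07 CPM. MXD3 ranged from 4.48 to 10.9 CPM at 46 °C, 2.77 to 7.02 CPM at 50 °C and 5.07 to 11.5 CPM at 54 °C. RAB24 covers its 3′ end on the same strand, so counts of MXD3 are uncertain. MXI1, on chromosome 10 (110207605 to 110287365, plus strand), ranged from 7.16 to 41.2 CPM in untreated cells, where replicate 3 was the highest, and from 22.1 to 35.4 CPM in nanoparticle-only cells. It ranged from 19.1 to 38.9 CPM at 46 °C, 15.3 to 38.5 CPM at 50 °C and 22.1 to 40.4 CPM at 54 °C, and every group overlapped every other.

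MLX, the second hub, lies on chromosome 17 (42567068 to 42573239, plus strand) and ranged from 68.9 to 119.5 CPM over the 20 libraries. Its group means differed by at most 1.09-fold, and its log2 fold changes against nanoparticle-only cells were −0.025 ± 0.17 at 46 °C, 0.081 ± 0.17 at 50 °C and 0.099 ± 0.17 at 54 °C. Their 95% intervals together reach from −0.36 to 0.43. PSMC3IP covers the 3′ end of MLX on the other strand. MGA, the PRC1.6 subunit, lies on chromosome 15 (41621224 to 41773081, plus strand) and ranged from 21.2 to 43.5 CPM, with group means that differed by at most 1.14-fold. Its log2 fold changes against nanoparticle-only cells lay between −0.052 and 0.045, and the intervals together reach from −0.57 to 0.57.

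MLXIP encodes MondoA and lies on chromosome 12 (122078722 to 122147347, plus strand). Its libraries had 58.9, 39.8, 84.7 and 67.7 CPM in untreated cells and 68.9, 53.6, 60.8 and 99.0 CPM in nanoparticle-only cells. They had 52.9, 47.4, 52.9 and 54.2 CPM at 46 °C, 59.2, 59.6, 74.8 and 47.4 CPM at 50 °C, and 77.9, 72.5, 82.4 and 106 CPM at 54 °C. The 54 °C libraries lay above all those at 46 °C, without overlap, as did 5.73% of all genes in either direction. MLXIP was 0.71 ± 0.21 higher on the log2 scale at 54 than at 46 °C, a 1.63-fold difference with a 95% interval of 1.23 to 2.17 (unadjusted p = 0.00114, adjusted p = 0.115, edgeR). DESeq2 gave adjusted p = 0.0493, and an edgeR fit with the replicate number as a block gave 0.0335. Replicates 1 and 2 by themselves gave a log2 fold change of 0.59 ± 0.24, and replicates 3 and 4 gave 0.82 ± 0.27. Against nanoparticles alone MLXIP had −0.45 ± 0.21 at 46 °C (adjusted p = 0.404, edgeR), −0.23 ± 0.20 at 50 °C (0.755) and 0.26 ± 0.20 at 54 °C (0.9753).

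**Figure D3:**
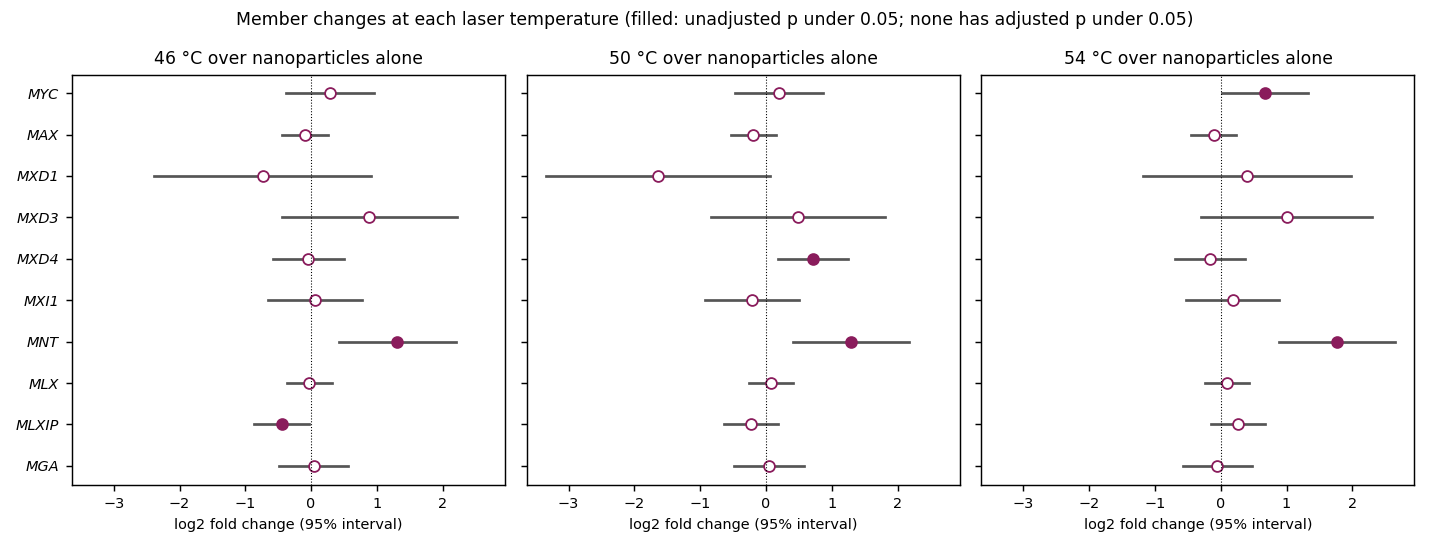
Log2 fold change of each member at 46, 50 and 54 °C over nanoparticles alone (horizontal axis), with 95% intervals as lines; filled points have an unadjusted p under 0.05. MNT is to the right of 0 at each temperature, MYC at 54 °C, with an interval from 0.015 to 1.32, just clears 0, and the MAX, MLX and MGA intervals span 0 at each temperature, with those of MAX and MLX the shorter.

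The spread between replicates was wider than counting alone would give for most members. MYC had a coefficient of variation of 62.7% at 46 °C, where counting error gives 11.3%, and 11.1% at 54 °C, where it gives 6.58%. MNT at 50 °C had 3.87%, below the 15% of counting, so the closeness of those 4 values is tighter than their counts can fix. Over the 10 members, the median log2 fold change was 0.0061 at 46 °C, 0.063 at 50 °C and 0.22 at 54 °C against nanoparticle-only cells, beside 0.011, 0.018 and 0.0084 over all tested genes. For nanoparticles alone against untreated cells it was −0.096, beside −0.0038 over all genes.

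Because MYC and its antagonists compete for MAX, the ratio of MYC to the summed MXD1, MXD3, MXD4, MXI1 and MNT levels was taken in each library. A 3′ library reads transcript ends, so the ratio was not corrected for gene length. The ends of different genes need not be counted equally well, and MXD3 counts are uncertain because RAB24 covers its 3′ end. It averaged −2.02 ± 0.74 on the log2 scale in untreated cells, −1.61 ± 0.30 in nanoparticle-only cells, −1.69 ± 0.97 at 46 °C, −1.78 ± 0.45 at 50 °C and −1.26 ± 0.18 at 54 °C (SD, n = 4 each). In CPM, MYC was below the summed antagonists in all 20 libraries, which does not show which of them were more abundant in the cells. The ratio ranged from −1.39 to −0.99 at 54 °C and from −2.04 to −1.36 in nanoparticle-only cells, so these groups overlapped. The summed antagonists averaged 74.5 ± 10.5 CPM in untreated cells, 66.4 ± 6.85 CPM in nanoparticle-only cells, 74.6 ± 10.1 CPM at 46 °C, 83.2 ± 5.32 CPM at 50 °C and 84.2 ± 14.1 CPM at 54 °C, so the nanoparticle-only group was the lowest and the 46 °C mean was close to the untreated one. The ratio follows the levels given above and is a description, with no test.

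**Figure D4:**
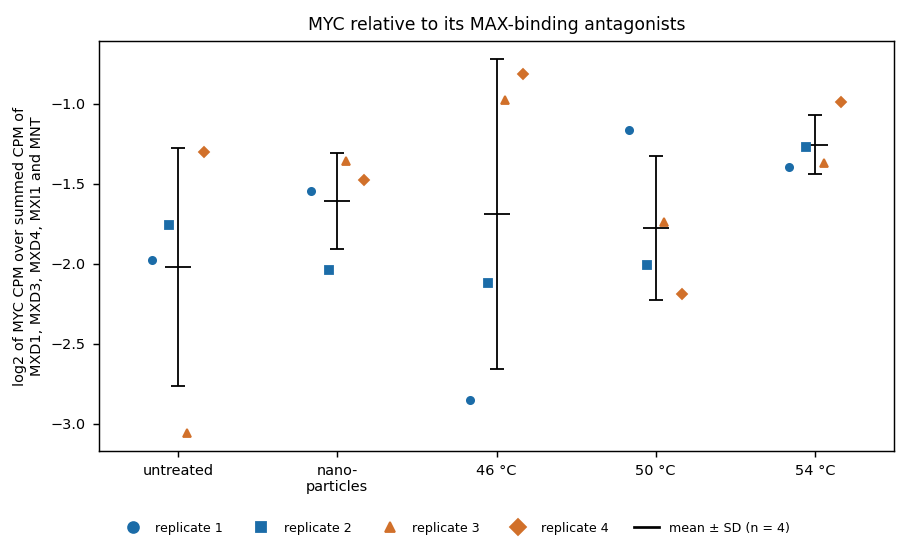
Log2 ratio of MYC CPM to the summed CPM of MXD1, MXD3, MXD4, MXI1 and MNT (vertical axis) in each library by group, with mean ± SD of 4 libraries. The 54 °C values lie between −1.39 and −0.99, while those at 46 °C run from −2.85 to −0.82 and divide by replicate pair.

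The genes around the network were grouped in lists of known function. Among 25 genes activated by MYC (nucleolar proteins, ribosome biogenesis factors, metabolic enzymes and cell cycle genes), all 25 were tested, and 1 rose at 46 °C against nanoparticle-only cells. That gene was HSPD1, with 984, 910, 1136 and 1107 CPM at 46 °C, against 632, 631, 809 and 618 CPM in nanoparticle-only cells, and a log2 fold change of 0.62 ± 0.12 (adjusted p = 0.00104, edgeR). HSPD1 is also in the list of inducible heat shock chaperones, of which 9 of 11 rose at 46 °C. SRM had −0.45 ± 0.15 at 46 °C (adjusted p = 0.160), and TFRC, the transferrin receptor, −0.38 ± 0.13 (0.161). At 50 and 54 °C 0 of 25 passed in either direction. The median over the list was −0.059 at 46 °C, −0.047 at 50 °C and −0.045 at 54 °C. HSPD1 was lower at 50 °C (−0.66 ± 0.12, adjusted p = 0.000315) and at 54 °C (−0.59 ± 0.12, adjusted p = 0.00259) than at 46 °C, and was the 1 member of the list called in each of these comparisons. CDK4 and SRM, whose E-boxes are printed above, had −0.29 and −0.037 at 54 °C against nanoparticle-only cells.

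Of 10 genes that MYC is known to repress, often through the zinc finger protein Miz-1, 7 were tested. At 46 °C 2 rose against nanoparticle-only cells. GADD45A, a stress gene that slows the cell cycle, had 53.8, 90.1, 77.6 and 101 CPM at 46 °C, against 40.7, 41.3, 39.3 and 36.8 CPM in nanoparticle-only cells (1.03 ± 0.21, adjusted p = 0.00349, edgeR). CDKN1A, the p21 inhibitor of cyclin-dependent kinases, had 110, 105, 125 and 83.4 CPM, against 66.8, 63.4, 48.6 and 58.0 CPM (0.83 ± 0.19, adjusted p = 0.0104). At 50 °C 2 of 7 rose, NDRG1 and GADD45A. NDRG1, a stress and differentiation gene, had 289, 266, 301 and 285 CPM at 50 °C, against 150, 127, 192 and 158 CPM in nanoparticle-only cells (0.87 ± 0.13, adjusted p = 2.61e-05), without overlap. GADD45A had 0.91 ± 0.21 (adjusted p = 0.015). At 54 °C NDRG1 was the 1 that rose, with 264, 233, 224 and 220 CPM, and a log2 fold change of 0.59 ± 0.13 (adjusted p = 0.0423).

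None of the 7 was called lower in these comparisons, but they did not all move one way. CDKN1B, another kinase inhibitor, had −1.003 ± 0.45 at 54 °C (adjusted p = 0.817, edgeR). Its means were 9.96, 8.54 and 10.7 CPM at 46, 50 and 54 °C, against 21.4 CPM in nanoparticle-only cells. Its libraries ran from 1.99 to 24.4, 5.79 to 11.2 and 8.43 to 15.7 CPM at those temperatures, against 17.5 to 24.1 CPM. The list's median was 0.42 at 46 °C, 0.64 at 50 °C and 0.40 at 54 °C. The call for CDKN1A at 46 °C was lost without nanoparticle replicate 3 (adjusted p = 0.0559) or 46 °C replicate 3 (0.0593). That for GADD45A at 50 °C was lost without nanoparticle replicate 4 (0.0515) or 50 °C replicate 1 (0.118). That for NDRG1 at 54 °C was lost in 10 of 20 fits that left out 1 library, with adjusted p up to 0.333 without nanoparticle replicate 2. The calls for HSPD1 at 46 °C, GADD45A at 46 °C and NDRG1 at 50 °C held in all 20. Fits within a replicate pair lost further calls with edgeR. GADD45A at 46 °C was lost within replicates 1 and 2 (adjusted p = 0.116). CDKN1A at 46 °C was lost within replicates 1 and 2 (0.0696) and within replicates 3 and 4 (0.0884). Within replicates 3 and 4, GADD45A at 50 °C (0.296) and NDRG1 at 54 °C (0.786) were also lost.

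**Figure D5:**
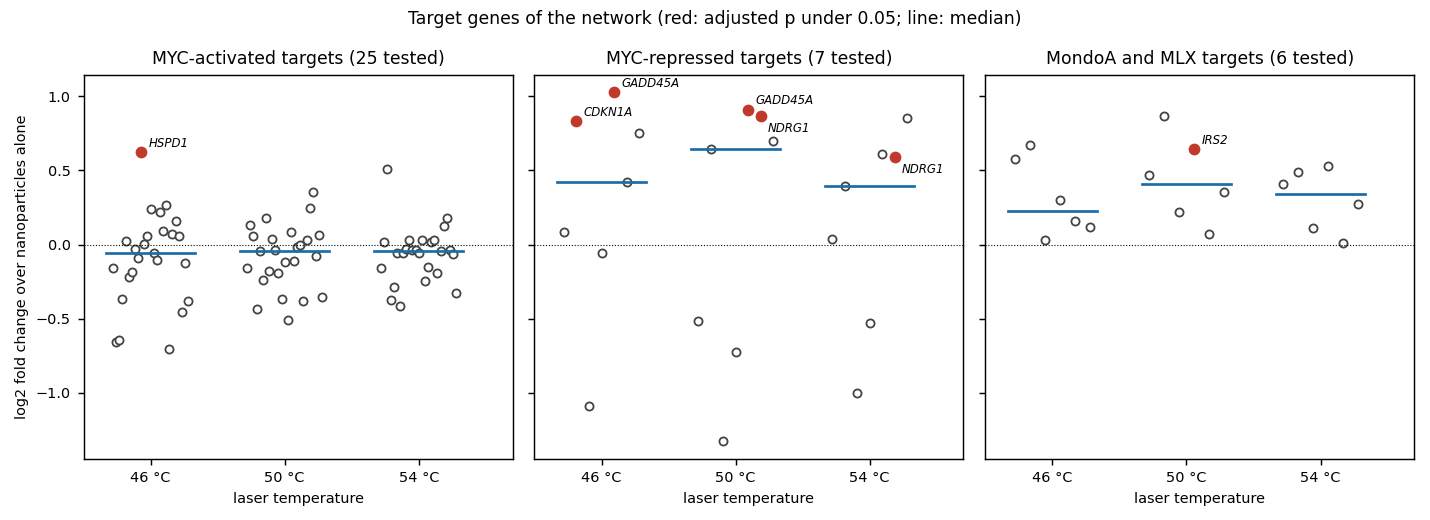
Log2 fold change over nanoparticles alone (vertical axis) of each tested gene activated by MYC, repressed by MYC or responsive to MondoA and MLX, at 46, 50 and 54 °C; red points have an adjusted p under 0.05 and blue lines are list medians. The activated genes lie around 0 at every temperature, with HSPD1 as the 1 red point, while the medians of the repressed and the MondoA lists lie above 0.

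MondoA and MLX are known to drive TXNIP and other genes of glucose handling, and all 6 listed genes were tested. IRS2, an insulin receptor substrate, rose at 50 °C, with 159, 138, 196 and 173 CPM, against 108, 73.7, 111 and 133 CPM in nanoparticle-only cells (0.64 ± 0.16, adjusted p = 0.0198, edgeR). TXNIP, which limits glucose uptake, had 0.35 ± 0.14 (adjusted p = 0.263), and ARRDC4, a related arrestin, 0.87 ± 0.60 (0.654). At 46 and 54 °C 0 of 6 passed, and the list's medians were 0.23, 0.41 and 0.34 at 46, 50 and 54 °C. The IRS2 call was lost without nanoparticle replicate 2 (adjusted p = 0.159) and without 50 °C replicate 3 (0.117) or 4 (0.056). It was also lost in the edgeR fit within replicates 3 and 4 (0.265).

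Few genes of proteins that work on MYC passed the test. Of 16 chromatin cofactors of MYC, 0 passed at any temperature against nanoparticle-only cells. HCFC1, a MYC-binding scaffold, had 0.49 ± 0.17 at 50 °C (adjusted p = 0.196) and 0.54 ± 0.17 at 54 °C (0.211) against 46 °C, with edgeR.

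Among 14 genes of MYC protein turnover, HUWE1, a ubiquitin ligase that acts on MYC, rose at 50 °C against nanoparticle-only cells (0.57 ± 0.15, adjusted p = 0.0392, edgeR). It had 204, 182, 172 and 210 CPM at 50 °C and 130, 114, 156 and 118 CPM in nanoparticle-only cells. This call was lost without nanoparticle replicate 1, 2 or 4 and without 50 °C replicate 1, 2 or 4 (adjusted p up to 0.158). It was also lost in the edgeR fit within replicates 3 and 4 (adjusted p = 0.426). AURKA, a kinase that stabilises MYC proteins, had −0.49 ± 0.16 (adjusted p = 0.153). Among 12 tested proteins that bind MYC mRNA, HNRNPD, also named AUF1, fell at 50 °C to 338, 337, 341 and 294 CPM, against 421, 461, 478 and 463 CPM in nanoparticle-only cells (−0.48 ± 0.11, adjusted p = 0.0122). Without 50 °C replicate 4 its adjusted p was 0.0611, and in the edgeR fit within replicates 1 and 2 it was 0.0987. HNRNPD had 399, 334, 373 and 403 CPM in untreated cells, below every nanoparticle library and overlapping the 50 °C libraries. The nanoparticle libraries that serve as controls were thus the highest group by mean. ELAVL1, which stabilises AU-rich mRNAs, had −0.50 ± 0.17 (0.153), and CELF1 −0.43 ± 0.14 (0.113).

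Of 12 corepressor genes of MXD and MNT, including SIN3A and the histone deacetylases, and of 11 PRC1.6 genes that work with MGA, 0 passed in any of the 7 comparisons with edgeR. The corepressor medians were −0.047, −0.083 and 0.025 at 46, 50 and 54 °C against nanoparticle-only cells, and the PRC1.6 medians were −0.023, −0.29 and −0.17. Of 8 paralogs and further E-box factors, 4 were tested and 0 passed. MYCN had 0 counts in all 20 libraries and MYCL had 5 counts in all, so MYC was the 1 MYC gene measured above a few counts.

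Other RNAs moved in the same libraries. Of 5 tested nuclear RNAs, listed as signs of RNA quality, 3 rose at 46 °C, 2 rose and 1 fell at 50 °C, and 2 rose at 54 °C against nanoparticle-only cells. The 1 that fell was NORAD (−0.87 ± 0.14, adjusted p = 5.99e-05, edgeR), a long noncoding RNA. The sum of all 6 listed nuclear RNAs, tested or not, was 3191 to 4484, 3446 to 4710 and 3972 to 5113 CPM at those temperatures, against 1472 to 2131 CPM. MALAT1 made up most of it, with means of 3331, 3725 and 4183 CPM at 46, 50 and 54 °C, against 1562 CPM. Of 7 tested replication-dependent histone mRNAs, which lack a poly(A) tail in cycling cells and were also listed as a sign of RNA quality, 2 rose at 50 °C against nanoparticle-only cells and 0 passed at 46 or 54 °C. They were HIST1H1E (1.86 ± 0.29, adjusted p = 3.3e-05, edgeR) and HIST1H2AG (4.08 ± 0.66, adjusted p = 6.08e-05), and the list's median was 1.86. The sum of all 8 listed histone mRNAs, tested or not, was 1060 to 1445 CPM at 50 °C, against 449.6 to 820 CPM in nanoparticle-only cells. HIST1H1E and HIST1H2AG were also higher at 50 than at 46 °C, and HIST1H2AG was lower at 54 than at 50 °C. These changes stand in the same 50 °C libraries as the 50 °C values of MXD4, MNT, IRS2, HUWE1 and HNRNPD given above. Of 13 mitochondrial mRNAs, 9 fell at 46 °C, 6 rose at 50 °C and 1 fell at 54 °C. Of 13 tested early-response mRNAs, whose fast decay resembles that of MYC mRNA, 7 rose at 46 °C and 0 at 50 or 54 °C. MYC at 46 °C was without a call where 7 of 13 early-response genes had one, and the part of RNA quality in the member values was not tested.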

How the data were processed

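The authors deposited estimated counts per gene for 20 libraries, which per the submitters' processing notes came from STAR and Salmon with the GRCh38 build. Versions, annotation, strand setting and use of molecular identifiers were not given in the sources used here. Between 1.74% and 2.9% of a library's values were not whole and were rounded. From the rounded counts, genes were filtered (filterByExpr, minimum count 10, minimum total 15), which left 12149 genes with at least 99.67% of each library's counts. They were scaled by TMM and fitted with edgeR 4.0.16 (R 4.3.3; robust quasi-likelihood, 5 group means over 20 samples, no covariate), with Benjamini-Hochberg adjustment over the 12149 genes. Standard errors are the log2 fold change over the square root of F, and 95% intervals come from the same fit. DESeq2 1.42.0, limma-voom (limma 3.58.1), other scalings, no filter and replicate terms were alternatives. So were fits within each replicate pair, fits of only the compared groups and fits that left out 1 library. The fit was also tested on simulated data. A level of 0 allows 3 counts of the library total, and such limits cover counting error only, since copies made by PCR are not independent molecules. Totals ran from 2401180 to 7710977.

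The 10 members and the 20 gene lists were chosen with earlier results of these data known, and 3 genes stand in 2 lists (WDR5, ZFP36 and HSPD1). All members were to be named, and of each list at most the 3 genes with the smallest p where at least 1 was called. CDK4 was named for its promoter. The values of 1 list gene are not reported here. CPM values of samples were compared before averaging, and replicate libraries of a group gave 7.55 to 23.4 as the chi-square per gene, so none was a duplicate. Residuals of libraries with the same replicate number correlated at 0.0222 to 0.066, under 0.1 in all 40 pairs, so the numbers were not taken to pair samples. Gene positions are from GENCODE v29 and promoters from RefSeq GRCh38.p14, where the table of promoters has no entry for MYC.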

Additional observations from a re-analysis of the deposited data

Results flagged for a closer look

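Among the 50 groups of 4 libraries, 1 library lay far from the other 3 in 3 of them, where chance flags about 1 in 20 groups. MXD4 at 54 °C was 16.6 CPM in replicate 4, below the other replicates at 23.6 to 25.0 CPM. MNT at 46 °C was 7.44 CPM in replicate 3, below the others at 12.6 to 13.4 CPM, and MNT at 50 °C was 10.9 CPM in replicate 2, below the others at 11.8 CPM. The MNT counts at 50 °C were 45, 44, 47 and 42, and their coefficient of variation of 3.87% was below the 15% of counting. Replicate 2 at 50 °C thus stands apart only because the other values lie so close.

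In 3 of 70 comparisons of members, every library of replicates 1 and 2 moved one way and every library of replicates 3 and 4 the opposite way. With so few libraries in each pair such a split can arise by chance. No share of all genes is at hand for this rule, so the 3 are not read as a trait of the members. MYC at 46 °C against nanoparticle-only cells differed between the pairs by 1.508 on the log2 scale (unadjusted p = 0.0129, adjusted p = 0.806, edgeR), lower in replicates 1 and 2 and higher in replicates 3 and 4. MYC at 50 °C against 46 °C differed by −2.168 (unadjusted p = 0.00046, adjusted p = 0.699). MXD4 at 46 °C against nanoparticle-only cells differed by 0.4963 (unadjusted p = 0.349, adjusted p = 0.991), with 26.1 CPM at 46 °C against 31.0 CPM within replicates 1 and 2, and 22.5 CPM against 18.98 CPM within replicates 3 and 4. None of these differences passed the adjustment, and all of them use the 46 °C libraries.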

How the results depend on the processing

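The 0 calls among members held in all fits that left out 1 library and in all alternatives but 5. DESeq2 gave 1 call at 50 °C and 1 at 54 °C against nanoparticle-only cells (MNT) and 1 for 54 °C against 46 °C (MLXIP). For 54 °C against 46 °C the replicate block also gave 1 call, MLXIP (adjusted p = 0.0335), and so did a term for the replicate pairs (1 call). The numbers were not taken to pair the libraries, of which 9 of 20 were closest to their own number, a count that does not settle the matter. The block changed no other member's call.

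MYC changed its log2 value under some settings, none with a call, and the cause was not tested. Within replicates 1 and 2 it was −0.6797 at 46 °C against nanoparticle-only cells and 1.186 at 50 °C against 46 °C. Within replicates 3 and 4 it was −0.1594 at 50 °C against nanoparticle-only cells and −0.1691 at 54 °C against 46 °C, and limma-voom gave 0.1325 at 50 °C against 46 °C. With 1 library left out it ran from −0.0018 (without untreated replicate 3) to 0.4446 for nanoparticles without light against untreated cells, from −0.1304 (without 46 °C replicate 4) to 0.5429 at 46 °C and from −0.05644 (without 50 °C replicate 1) to 0.3433 at 50 °C against nanoparticle-only cells. For 50 °C against 46 °C it ran from −0.3427 to 0.3298 (without 46 °C replicate 4). At 54 °C against nanoparticle-only cells it stayed between 0.5393 and 0.7628. Rarer members moved more: MXD1 at 50 °C against nanoparticle-only cells was −0.5159 within replicates 1 and 2 and −5.262 within replicates 3 and 4, and MXD3 in nanoparticle-only against untreated cells −0.4724 and −2.889.

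Over all genes, calls at 46 °C against nanoparticle-only cells numbered 117, with 269 under the block and 64 within replicates 3 and 4. At 50 °C they numbered 148, with 333 under the block and 61 within replicates 3 and 4, and at 54 °C 15, with 46 under the block. For 50 °C against 46 °C they numbered 145, with 420 under scaling by library totals, where the median of all genes was −0.177. That scaling lost the calls of HUWE1 (adjusted p = 0.115), IRS2 (0.0647) and NDRG1 at 54 °C (0.0922), among others. A term for the replicate pairs gave 263, 330 and 43 calls at 46, 50 and 54 °C against nanoparticle-only cells. It gave 341 calls for 50 °C against 46 °C. Rare members are limited by depth, with 28 MXD1 counts at 50 °C and 72 MNT counts in nanoparticle-only cells.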
